A study of Arabidopsis thaliana with 6 samples.

Results

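Pectin methylesterases, also called pectinesterases, are cell wall enzymes that remove methyl groups from homogalacturonan, the main pectin. The family was defined by 60 listed loci, of which 40 had a probe set that the platform annotation assigns to that gene alone, out of 13333 genes measured in this way. No member had more than 1 such probe set, so none had to be chosen among several. Another 4 members, *PPME1*, AT5G07410, *VGD1* and *VGDH1*, share probe sets with each other and are described only as pairs in the closing observations. The remaining 16, among them *PME1*, *PME2*, *PME3*, *PME5*, *VGDH2* and *QRT1*, were not analysed here.

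Pectin is made in the Golgi in a highly methylated form and is demethylated in the wall. The free acid groups can then be bridged by calcium, which stiffens the wall, or the chain can be cut by polygalacturonases and pectate lyases, which loosens it. The activity of the family is held in check by pectin methylesterase inhibitors, and many members are themselves made with an inhibitor-like pro-region that subtilases remove. Pollen has its own members, which act in the wall of the growing pollen tube. Others act in root hairs, seed coat mucilage, stems, guard cells and shoot organ initiation.

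The tissue was the inflorescence with its young buds, sampled from 3 *tink/ibr5-6* plants and from 3 wild-type plants of Landsberg *erecta* (L*er*), each plant hybridised to its own Affymetrix ATH1 array. The *tink/ibr5-6* plants carry a chemically induced point mutation in *IBR5*, which encodes a dual-specificity MAPK phosphatase, and represent 1 mutant line. The line was found in *klu-2* plants and was backcrossed to L*er* to separate it from *klu-2*, so that both groups share the L*er* background. Plant age was not stated for these arrays. The study's methods name inflorescences with young buds, its results name closed flowers, and no numbered stage was stated. *IBR5* itself was not analysed here, and a point mutation would in any case not be checked by its transcript level.

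Values are log2 signals after gcrma, an array normalization with a sequence-based background correction, and their lowest value was 2.10. A log2 signal under 3 is treated below as dim, since it lies close to that lowest value, and such signals carry little or no order. Array medians lay between 6.18 and 6.20. The correlation of 2 arrays, taken over probe sets, was 0.996 to 0.998 for the same genotype and 0.972 to 0.985 for different genotypes. The comparison was made by limma, and a gene was called at an adjusted p under 0.05 (Benjamini-Hochberg over 22746 probe sets) and an absolute log2 difference above 1. The tissue label was checked against markers of floral tissues. All 4 measured of 22 tapetum and early anther markers had log2 signals above 7 on every array. Of 11 pistil and ovule markers 3 were measured. Of these, *NGA1* and *SPT*, both active in the pistil, had signals above 6, and *INO* was dim on all 6 arrays. The 2 measured of 11 markers of floral meristem and organ identity, *CLV3* and *UFO*, were dim on all 6 arrays.

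Pectin methylesterase genes with a change past the threshold were all lower in *tink/ibr5-6* inflorescences. Of the 40 measured members 6 fell (15%), against 2.71% of all probe sets, and the other 34 were not called. The 6 were AT5G07430, AT5G07420, AT3G05610, AT2G47550, AT2G26450 and AT5G49180, with log2 differences from -6.21 to -1.40. No member was called higher by limma, as 1.53% of all probe sets were. At an unadjusted p under 0.05, 8 members were lower and 2 were higher, against 11.9% and 17.9% of all probe sets. The median log2 difference was 0.00 over the family and 0.00 over all probe sets. The family count was 3 without *tink/ibr5-6* replicate 2 and 3 without L*er* replicate 3.

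Expression in these inflorescences was limited to a part of the family. Of the 40 members 22 (55%) were dim on all 6 arrays, against 31.5% of all probe sets, and 14 of these lay at the lowest value of the table on every array. Among the dim members were AT5G04960, AT5G04970, AT4G02300, AT4G02320 and *ATPMEPCRD*, all with overlapping arrays. The values of the 22 ranged from 2.10 to 2.65 and their log2 differences from -0.20 to 0.09. The other 18 members reached a log2 signal of 3 on at least 1 array, 13 of them on all 6. In AT3G05610, AT2G26450, AT3G06830 and AT3G17060, 4 of the 40, all mutant arrays were dim while some L*er* array was not, as in 1.57% of all probe sets, and the reverse, seen in 1.13%, occurred in 0 members. In 12 of the 18 the *tink/ibr5-6* arrays all lay below the L*er* arrays, in 2 they all lay above, and in 4 the arrays overlapped. Over the 40 measured members this is 30% lower and 5% higher, against 14.4% and 21.3% of all probe sets.

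**Figure D1:**
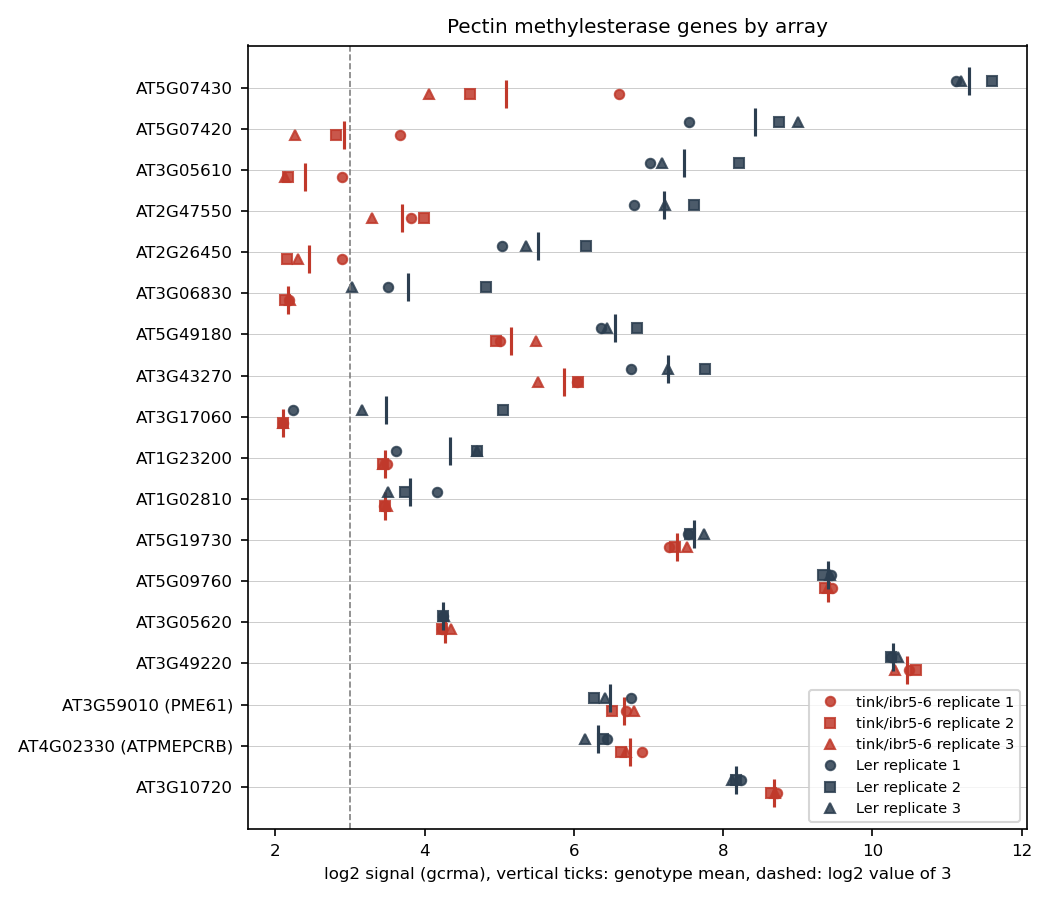
Log2 signal (gcrma) of the 18 pectin methylesterase genes that reached a log2 value of 3 (dashed line) on at least 1 array, with 1 point per array for 3 *tink/ibr5-6* (red) and 3 L*er* (dark) plants and a vertical tick at each genotype mean. Genes are ordered by their log2 difference, from AT5G07430 (-6.21) at the top to AT3G10720 (0.51) at the bottom. The genotypes do not overlap in 14 of the 18, of which 4 reached the dashed line only in L*er* arrays. Over the 40 measured members, 30% had all mutant arrays below the L*er* arrays and 5% above. The shares over all probe sets were 14.4% and 21.3%.

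Of 7 members listed here as known from pollen, 2 had a probe set of their own, and both fell. AT5G07420 and AT5G07430 belong to the pollen-expressed relatives of *PPME1*, which acts in the pollen tube wall. AT5G07430 had log2 signals of 6.60, 4.61 and 4.06 in the *tink/ibr5-6* arrays and of 11.12, 11.60 and 11.18 in the L*er* arrays. The genotypes were thus far apart, and the mutant arrays differed much more among themselves (SD 1.34) than the wild-type arrays (SD 0.26, n = 3 each). The log2 difference was -6.21 (standard error 0.75, 95% confidence interval -8.22 to -4.20, adjusted p = 0.014 from limma), a 73.9-fold decrease. AT5G07420 had log2 signals of 3.66, 2.82 and 2.26 in *tink/ibr5-6* and of 7.55, 8.74 and 9.00 in L*er*, so that only 1 mutant array was above the dim level. Its fitted log2 difference was -5.52 (standard error 0.58, adjusted p = 0.010 from limma). AT5G07430 lost its call when *tink/ibr5-6* replicate 2 was left out, and likewise for replicates 2 and 3 of L*er* (adjusted p of 0.054 to 0.057), whereas AT5G07420 was called in all 6 fits that leave out 1 array.

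Members outside the tissue lists fell as well, and their absence from these lists does not say where they are expressed. AT3G05610, annotated as a pectinesterase, had log2 signals of 2.90, 2.16 and 2.13 in *tink/ibr5-6* and of 7.02, 8.22 and 7.18 in L*er*. It was dim in every mutant array and bright in every wild-type array, a decrease of at least 22.2-fold when counted from the L*er* mean to the dim level (fitted log2 difference -5.08, standard error 0.43, adjusted p = 0.0069 from limma). AT2G47550, of the same annotation, had log2 signals of 3.82, 3.99 and 3.29 in *tink/ibr5-6* and of 6.80, 7.60 and 7.21 in L*er*. Both genotypes were above the dim level, and the log2 difference of -3.50 (standard error 0.30, adjusted p = 0.0070 from limma) corresponded to an 11.3-fold decrease. AT3G05610 and AT2G47550 were called in all 6 fits that leave out 1 array and were the only members called at an adjusted p under 0.01.

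AT2G26450, listed under no tissue, fell to the dim level. Its log2 values were 2.89, 2.15 and 2.31 in *tink/ibr5-6* and 5.03, 6.17 and 5.35 in L*er*. The decrease was at least 5.73-fold by the bound from the dim level (fitted log2 difference -3.07, standard error 0.39, adjusted p = 0.014 from limma). It was not called without *tink/ibr5-6* replicate 2, *tink/ibr5-6* replicate 3 or L*er* replicate 3, with an adjusted p of 0.054 to 0.060.

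Both members known from seeds were measured. AT5G49180 is known from the seed coat, where it acts on mucilage pectin. It had log2 signals of 5.01, 4.95 and 5.50 in *tink/ibr5-6* and of 6.36, 6.85 and 6.45 in L*er*, a log2 difference of -1.40 (standard error 0.22, adjusted p = 0.023 from limma) or a 2.64-fold decrease. The genotypes did not overlap, but of the 6 fits with 1 array removed only that lacking *tink/ibr5-6* replicate 3 kept the call, with log2 differences of -1.57 to -1.25 over all 6. AT1G23200 is known from embryo growth and seed mucilage. Its log2 signals were 3.50, 3.45 and 3.45 in *tink/ibr5-6* and 3.61, 4.70 and 4.70 in L*er*, with L*er* replicate 1 close to the mutant arrays. The log2 difference of -0.88 (95% confidence interval -1.81 to 0.05, adjusted p = 0.19 from limma) was not called, while without L*er* replicate 1 it was -1.24 and called.

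A group of 3 members, AT3G06830, AT3G43270 and AT3G17060, had log2 differences past 1 without passing the test. AT3G43270 had log2 signals of 6.04, 6.05 and 5.52 in *tink/ibr5-6* and of 6.77, 7.76 and 7.27 in L*er*. The genotypes did not overlap, and the log2 difference was -1.40 (95% confidence interval -2.25 to -0.54, adjusted p = 0.056 from limma), almost the value of AT5G49180 with a larger spread. It was called with arrays centred on their medians (adjusted p = 0.038), with array weights (0.039), and when testing was restricted to mean log2 signals of at least 4 or 6 (0.0084 and 0.0042). Over all its alternatives the adjusted p ran from 0.0042 to 0.157. AT3G06830 was dim in all mutant arrays and had log2 signals of 3.50, 4.82 and 3.02 in L*er*, so that the wild-type arrays were themselves close to the dim level (log2 difference -1.61, adjusted p = 0.12 from limma). AT3G17060 lay at a log2 signal of 2.11 in all mutant arrays and at 2.24, 5.05 and 3.16 in L*er*, and its difference of -1.38 had a 95% confidence interval of -3.50 to 0.74.

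**Figure D2:**
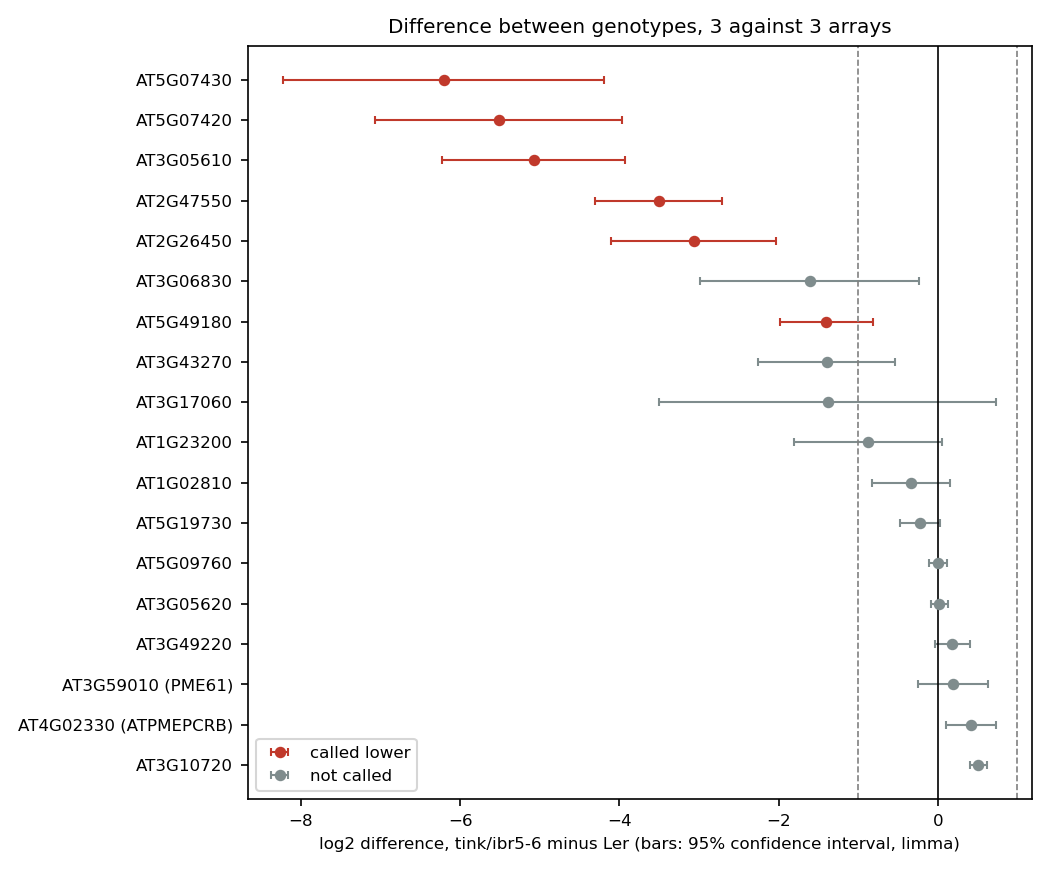
Log2 difference (*tink/ibr5-6* minus L*er*, horizontal axis) with its 95% confidence interval from limma for the 18 pectin methylesterase genes with a signal, 3 arrays per genotype. The 6 genes called lower are red, the others are grey, and the dashed lines mark a log2 difference of 1 in either direction. The interval of AT3G17060 is the widest among the genes not called, from -3.50 to 0.74.

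Several members with a signal on every array were not called. AT3G49220 is known from guard cells and heat tolerance. Its log2 signals were 10.49, 10.58 and 10.31 in *tink/ibr5-6* and 10.25, 10.25 and 10.34 in L*er*. The arrays overlapped, and the log2 difference of 0.18 had a 95% confidence interval of -0.04 to 0.40, which holds no change as large as those of the called genes. AT5G09760 had log2 signals of 9.46, 9.37 and 9.40 in *tink/ibr5-6* and of 9.45, 9.34 and 9.43 in L*er*, a difference of 0.01 (95% confidence interval -0.11 to 0.12) whose sign turned with the processing. AT3G10720 had log2 signals of 8.73, 8.64 and 8.69 in *tink/ibr5-6* and of 8.24, 8.17 and 8.12 in L*er*. All mutant arrays were higher, and with a log2 difference of 0.51 (95% confidence interval 0.40 to 0.61, adjusted p = 0.0062 from limma) or 1.42-fold it passed on p but not on size. Without a limit on the difference 1 member was thus higher and 6 were lower, against 9.6% and 6.65% of all probe sets.

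*ATPMEPCRB*, also named *PME41* and known from cold and brassinosteroid responses, had log2 signals of 6.91, 6.63 and 6.70 in *tink/ibr5-6* and of 6.45, 6.39 and 6.15 in L*er*. The genotypes did not overlap, with a log2 difference of 0.42 (95% confidence interval 0.10 to 0.74, adjusted p = 0.091 from limma). *PME61*, also named *PME35* and known from the strength of the stem, had log2 signals of 6.70, 6.51 and 6.80 in *tink/ibr5-6* and of 6.77, 6.27 and 6.42 in L*er*. Its arrays overlapped, and the difference of 0.19 had a 95% confidence interval of -0.25 to 0.63. AT5G19730 was lower in every mutant array by a small amount, with a log2 difference of -0.22 (95% confidence interval -0.48 to 0.03, adjusted p = 0.21 from limma). AT1G02810, with signals of 3.45 to 4.16, had a log2 difference of -0.33, and AT3G05620, with signals of 4.23 to 4.36, one of 0.02 (adjusted p of 0.33 and 0.89 from limma).

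Members that lie beside each other in the genome were set side by side, since many pectin methylesterase genes stand in tandem. In the gene order of the RefSeq annotation (assembly TAIR10.1), 14 pairs of members were neighbours or had 1 gene between them, and both genes were measured in 6 of these pairs. AT5G07420 and AT5G07430 are direct neighbours on chromosome 5, next to AT5G07410, and both fell, with log2 differences of -5.52 and -6.21. AT3G05610 and AT3G05620 are direct neighbours on chromosome 3 and differed, since the former was at least 22.2-fold lower (its bound) and the latter had a log2 difference of 0.02. AT4G02330 (*ATPMEPCRB*), with 0.42, stands beside AT4G02320, which was dim on all arrays. In the other pairs, AT2G36700 with AT2G36710, AT4G02300 with AT4G02320 and AT5G04960 with AT5G04970, both genes were dim on all arrays. Cross-hybridisation between close copies was not tested, and values of tandem neighbours are uncertain to that extent.

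Pollen markers were set beside the 6 called members array by array. Averaged over the called members, the log2 deviation from the wild-type mean was -3.60, -4.30 and -4.49 in *tink/ibr5-6* replicates 1, 2 and 3, and -0.43, 0.45 and -0.02 in those of L*er*. L*er* replicate 1 had the lowest L*er* value in all 6 genes and L*er* replicate 2 the highest in 5. These members were chosen for being lower, so that mutant averages below those of L*er* were fixed in advance. The mutant values of these averages include dim signals and give no order of the mutant arrays. Of 31 markers of mature pollen and the pollen tube 17 were measured, of which 9 were lower, none was higher and 8 were not called by limma, against 2.71% lower and 1.53% higher of all probe sets. At an unadjusted p under 0.05, 12 were lower and none was higher, against 11.9% and 17.9%, and the median log2 difference of the 17 was -2.12. Averaged over the 14 markers with a signal above the dim level on some array, the mutant arrays lay at -2.24, -2.50 and -2.69 from the wild-type mean, against -0.35, 0.45 and -0.11 for L*er* replicates 1, 2 and 3. Of these 14, 7 were included only through their L*er* arrays, being dim in all mutant arrays, so that the averages are a description. L*er* replicate 1 had the lowest L*er* value in 9 of the 14 markers and L*er* replicate 2 the highest in 11. The 12 other members with a signal had their highest L*er* average in replicate 2 (0.26) and their lowest in replicate 1 (-0.17). Among these 12, AT3G06830 and AT3G17060 were included only through their L*er* arrays. Both had their highest value in L*er* replicate 2 (4.82 and 5.05). The median deviations of the 12 were -0.014, -0.005 and -0.025 in L*er* replicates 1, 2 and 3. Their summed linear signal was highest in L*er* replicate 3 (2861, against 2834 in replicate 2). No order of the L*er* arrays is therefore read from the averages of these 12.

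**Figure D3:**
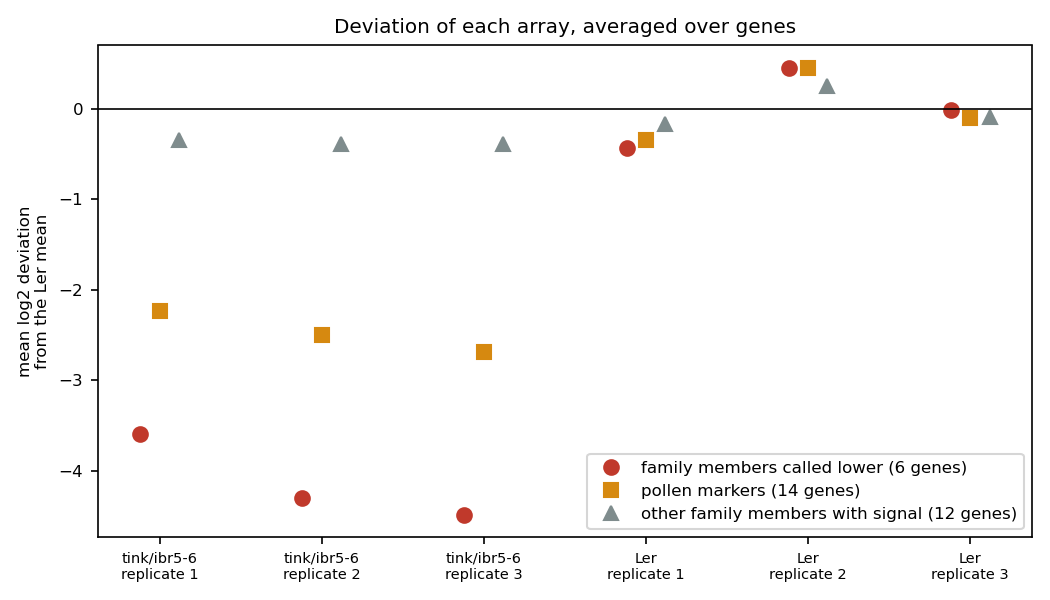
Mean log2 deviation of each array from the L*er* mean (vertical axis) for 6 pectin methylesterase genes called lower (circles), 14 pollen markers (squares) and the 12 other family members with a signal (triangles), by array on the horizontal axis. In all 3 sets L*er* replicate 2 has the highest average and every mutant average is below every L*er* average. For the other family members no order of the L*er* arrays is read from this, since their summed linear signal was highest in L*er* replicate 3. The first set was chosen for being lower, and all 3 sets hold genes that are dim in all mutant arrays. The other members lie between -0.39 and 0.26. Their summed linear signal was 2853 to 3067 in *tink/ibr5-6* and 2776 to 2861 in L*er*.

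The linear signals of the 14 pollen markers summed to 167 to 246 in the *tink/ibr5-6* arrays and to 1865 to 2479 in the L*er* arrays. Of the 9 markers called lower, the 3 with the largest fitted decreases are named here. They were *PLIM2a*, which encodes an actin-binding protein, *AtVEX1*, a sugar transporter gene also named *SWEET5*, and *ANX2*, a receptor kinase gene of the pollen tube. Among the 8 markers not called were *ANX1*, *EXPB5* and *AGL30* (adjusted p of 0.10, 0.075 and 0.19 from limma). The fitted log2 difference was -5.41 for *PLIM2a*, dim in all but 1 mutant array, and -4.71 for *AtVEX1*, and *ANX2* was at least 7.53-fold lower (its bound). Of the 17, *AGL65*, *AGL94* and AT2G21480 were dim on all arrays. The part of the pollen markers in the decrease of the family was not tested. In a whole inflorescence, fewer pollen cells and less RNA per cell cannot be told apart. Among markers of other tissues, all mutant arrays lay above the L*er* arrays in 3 of 4 tapetum, 2 of 3 pistil and 0 of 2 meristem markers. They lay below in none. The shares over all probe sets were 21.3% above and 14.4% below. The 4 measured tapetum and early anther markers summed to 13148 to 14250 in linear signal in *tink/ibr5-6* and to 11492 to 12360 in L*er*. None was called by limma. At an unadjusted p under 0.05 none was lower and 3 were higher, against 11.9% and 17.9% of all probe sets. AT1G75920 of this list had a log2 difference of -0.34 with overlapping arrays. *AMS*, a regulator of tapetum development, and *SWEET8*, a sugar transporter gene, had log2 differences of 0.89 and 0.49 and passed on p but not on size (adjusted p of 0.025 and 0.015 from limma). Of 3 measured pistil markers *INO* was dim, and *NGA1* and *SPT* had log2 differences of 0.92 and 0.47 without overlap of the genotypes (adjusted p of 0.017 and 0.13 from limma), summing to 368 to 403 in *tink/ibr5-6* and to 226 to 274 in L*er*. Their part in the result was not tested either.

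Other genes of pectin metabolism were counted from lists that were chosen with earlier results of these data known. Of 21 pectin methylesterase inhibitor genes 13 were measured, and 5 were lower, none was higher and 8 were not called by limma, against 2.71% lower and 1.53% higher of all probe sets. At an unadjusted p under 0.05, 6 were lower and 2 were higher, against 11.9% and 17.9%. AT5G20740 and AT5G62350 were higher, with log2 differences of 0.45 and 0.42. Both passed on p but not on size (adjusted p of 0.014 and 0.0088 from limma). Without a limit on the difference 5 of the 13 were thus lower and 2 higher, against 6.65% and 9.6% of all probe sets. The median log2 difference of the 13 was -0.13. AT4G02250 had a fitted log2 difference of -5.92 and AT5G46940 one of -5.47, both with some mutant arrays dim, and *APPB1*, which encodes an inhibitor known from pollen, was at least 7.64-fold lower (its bound). Of 21 polygalacturonases, which cut demethylated homogalacturonan, 13 were measured, and 4 were lower and none was higher by limma, against the same 2.71% and 1.53% (also 4 lower and none higher at an unadjusted p under 0.05). AT3G07820 had a log2 difference of -3.98 and AT5G48140 a fitted one of -5.77, the latter dim in all but 1 mutant array, and AT3G07840 was at least 6.58-fold lower (its bound). Their median log2 difference was -0.0034, and 8 of the 13 were dim on all arrays.

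Pectate lyases cut the same chains by another reaction. Of 26 listed 23 were measured, and 8 were lower (34.8% against 2.71% of all probe sets). Only 1 was higher, against 1.53% of all probe sets, and the median log2 difference was -0.25. At an unadjusted p under 0.05, 11 were lower and 1 was higher, against 11.9% and 17.9% of all probe sets. *AT59* had a fitted log2 difference of -4.97 and AT5G15110 one of -4.91, both dim in all but 1 mutant array, and AT2G02720 was at least 14.4-fold lower (its bound). AT3G09540 was higher, with a log2 difference of 1.57 (adjusted p = 0.0099 from limma).

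Genes that make, process or sense pectin were not called. The 2 measured of 19 genes of homogalacturonan synthesis and methylation had log2 differences of 0.72 (*GAUT15*) and 0.08 (AT3G49720). The 3 subtilases known to process pectin methylesterases or to act on the wall beside them, *S1P*, *SBT3.5* and *ARA12*, had -0.25, 0.02 and 0.17. The 6 measured of 12 pectin acetylesterases ranged from -0.51 (AT3G09410) to 0.49 (AT3G05910). Both of these passed on p (adjusted p of 0.012 and 0.041 from limma) but not on size. *FER*, a receptor kinase gene that binds pectin and the 1 measured of 6 wall receptors, had 0.72 and passed on p (adjusted p = 0.0063 from limma) but not on size. At an unadjusted p under 0.05, 1 of the synthesis genes and *FER* were higher, and none of the subtilases passed. Of the acetylesterases 1 was lower and 1 was higher. The shares over all probe sets were 11.9% lower and 17.9% higher.

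**Figure D4:**
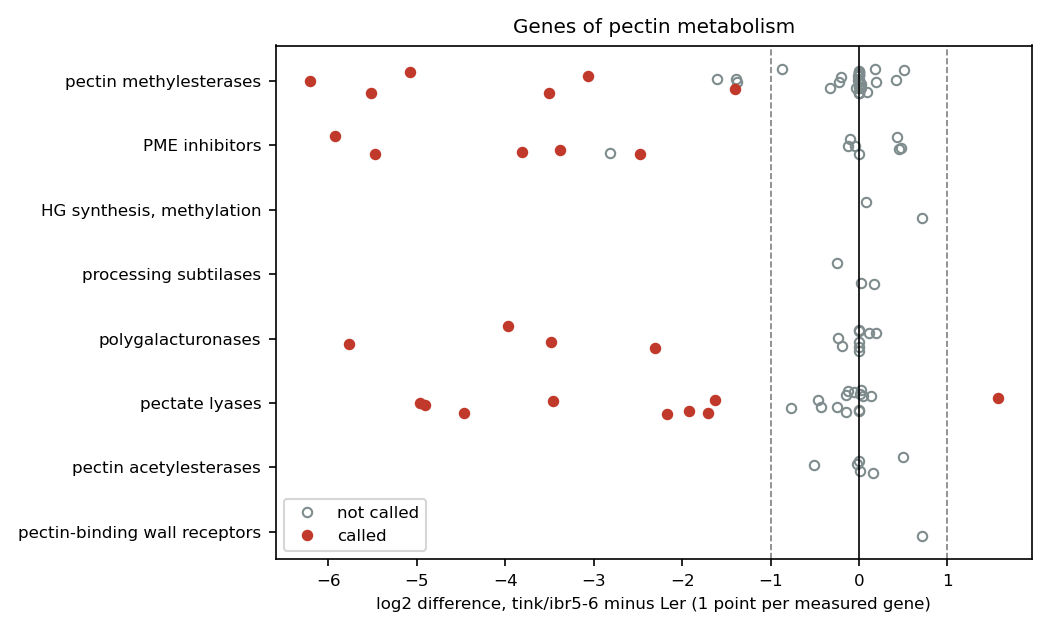
Log2 difference (*tink/ibr5-6* minus L*er*, horizontal axis) of every measured gene of the pectin methylesterase family and of 7 lists of pectin genes (HG, homogalacturonan), with 1 point per gene, 3 arrays per genotype. Filled red points are called genes, open grey points are not called, and dashed lines mark a log2 difference of 1. Called genes lie on the left in 4 of the 8 rows, and AT3G09540 among the pectate lyases is the 1 called gene on the right.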

How the data were processed

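Hybridisation signals of the 6 ATH1 arrays were deposited by the authors as gcrma-normalized log2 values; no gcrma version was stated. No further scaling was applied. After removal of 64 control probe sets from 22810, 22746 were tested. Per the platform table, 13513 of them have 1 gene, 503 have several, and 8730 are unlisted. The comparison used limma 3.58.1 (lmFit, eBayes; R 4.3.3) and the thresholds stated in the study's methods. The prior for the spread had 0.401 degrees of freedom, so that each error rests almost wholly on 6 values. The test was also run on simulated data, with an outcome that is not reported here. An exact permutation test of 3 against 3 arrays cannot go below p = 0.1. The number of arrays limits the precision.

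The family members, the gene lists and the alternatives were chosen with earlier results of these data known. Values are given for members called, with a mean log2 signal of at least 8 in either genotype, in a tissue list, or nearest to the limit of 1. The other members with a signal, the dim level of 3 and the pathway genes not called were chosen or named after their values had been seen. Slides and scan dates were not analysed here. A fold decrease written as "at least" uses the L*er* mean without its spread. Figures were drawn with Python 3.11.15 and matplotlib 3.10.9.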

Additional observations from a re-analysis of the deposited data

How the results depend on the processing

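The 6 called members were also called, and no others, with arrays quantile-normalized again, with a trend and robust prior and without probe sets of suffix _s_at or _x_at. AT3G43270 joined them with centred arrays and with array weights. With only probe sets of a mean log2 value of at least 4 tested, AT3G43270 joined and AT2G26450 was not tested. Among probe sets with a mean of at least 6, 2 of 8 members were lower (AT3G43270 and AT5G07430), and 373 of 11713 probe sets. Of the 6 called members only AT5G07430 reached that mean, and the rest were not tested there. At an adjusted p under 0.01 members lower numbered 2, probe sets lower 199 and higher 167. With no limit on the log2 difference, 1 member was higher (AT3G10720), and 1513 probe sets were lower and 2184 higher. That setting moved the share of lower among called probe sets from 63.9% to 40.9%. Leaving out each array gave 3 to 6 members lower, 287 to 463 probe sets lower and 231 to 283 higher. Arrays with the same replicate number did not vary together (r of -0.26, 0.01 and -0.05, with 1 of 6 arrays closest to its own number). With the replicate number as a block 0 members were lower, and 65 probe sets were lower and 68 higher. The log2 difference of AT5G09760 turned to -0.019 with arrays quantile-normalized again and ran from -0.027 (L*er* replicate 2 removed) to 0.029 over the fits that lack 1 array, and that of AT3G05620 from -0.021 (*tink/ibr5-6* replicate 3 removed) to 0.044. The cause was not tested. Signals near the lowest value limit what can be seen in the 22 dim members, and a dim level of 2.5 or 4, chosen after the data were seen, left 21 and 22 members dim on all arrays.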

Other observations

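Members that share a probe set gave values that belong to no single gene. The probe set that the annotation gives to both *PPME1* and AT5G07410 had log2 signals of 11.07, 11.13 and 9.50 in *tink/ibr5-6* and of 13.12, 12.95 and 13.05 in L*er*. The genotypes did not overlap, and the mutant arrays again spread more (SD 0.93) than the wild-type arrays (SD 0.08, n = 3 each). The log2 difference was -2.47 (standard error 0.51, adjusted p = 0.044 from limma). The probe set given to *VGD1* and *VGDH1*, of which *VGD1* acts in pollen tube growth through the style, had log2 signals of 11.26, 11.37 and 9.65 in *tink/ibr5-6* and of 13.01, 13.25 and 12.99 in L*er*, a log2 difference of -2.32 (standard error 0.54, adjusted p = 0.057 from limma). In both, *tink/ibr5-6* replicate 3 was the lowest array.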
